A study of Mus musculus with 7 samples.

Results

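Chromatin accessibility inside exons was described here for 2949 of the 61288 regions (4.81%) listed from an ATAC-seq comparison of mouse pancreatic β cells without and with CHD3 and CHD4. ATAC-seq uses a transposase to cut and tag open DNA, so a higher count in a region means that its chromatin was cut more often. An exonic region was any listed region whose deposited annotation began with the word exon, and no measured value entered that choice. The Chd3/4Δβ group (3 libraries) carried Chd3 fl/fl, Chd4 fl/fl, the R26-LSL-tdTomato reporter and MIP-CreERT. The Control group (4 libraries) carried Chd3+/+, Chd4+/+ and the same reporter and Cre. In MIP-CreERT the mouse insulin promoter drives a Cre that acts only in the presence of tamoxifen, and both groups received 10 tamoxifen doses by gavage over 2 weeks from 4 weeks of age. All mice were male, and Tomato+ cells were sorted before the assay. Mice of these genotypes were 10 weeks old where an age at collection is stated, though none is stated for these libraries. The number of animals behind each library is not given in the sources used here, so p-values measure the spread between libraries. The floxed exons are 12 to 21 of Chd4 and, by the methods, 12 to 21 of Chd3, for which 13 to 20 is also stated. No listed exonic region was named for Chd3 or Chd4 (0 regions), so the deletion could not be checked in these values.

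CHD3 and CHD4 are alternative ATPases of NuRD, a complex that joins nucleosome remodelling to histone deacetylation, slides nucleosomes and is best known for closing chromatin at enhancers and promoters of genes of other lineages. Most open chromatin lies outside coding sequence. An open site in an exon can be the downstream edge of a promoter, a promoter of another transcript, or an enhancer that happens to overlap an exon, and the annotation records only the overlap. First exons lie next to the transcription start site (TSS), while internal and last exons usually lie far from it. The deposited annotation has no class for untranslated regions (0 entries), so the exons here include them, as well as exons of non-coding transcripts.

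To show what the DNA at the start-site members looks like, RefSeq promoter windows (250 bases before to 50 bases after the gene's start) were laid over the regions. Of the 2949 exonic regions, 461 contained the whole window of their own gene, and 429 of these were first or only exons. The windows below belong to 6 regions that were more accessible in Chd3/4Δβ cells than in Control cells and whose genes recur in the results. They come from RefSeq on GRCm38.p6 and are written 5′ to 3′ on the gene's strand. Capitals mark matches on either strand to 5 motifs. The E-box searched was CAGCTG. The homeodomain core was TAATTA. The TATA box was TATAAA. The CCAAT box was its 5 letters. The cyclic AMP response element, known from the somatostatin promoter, was TGACGTCA. All but the TATA and CCAAT boxes read the same on both strands, and no match in these windows overlaps another.
Bmp8b (chr4:123104911-123105210, plus strand): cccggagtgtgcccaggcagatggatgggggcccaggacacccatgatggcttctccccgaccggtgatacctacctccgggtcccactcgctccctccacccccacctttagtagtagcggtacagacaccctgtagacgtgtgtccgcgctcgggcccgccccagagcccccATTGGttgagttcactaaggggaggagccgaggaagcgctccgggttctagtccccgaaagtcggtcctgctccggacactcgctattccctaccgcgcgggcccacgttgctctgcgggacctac
Kcna5 (chr6:126535506-126535805, minus strand): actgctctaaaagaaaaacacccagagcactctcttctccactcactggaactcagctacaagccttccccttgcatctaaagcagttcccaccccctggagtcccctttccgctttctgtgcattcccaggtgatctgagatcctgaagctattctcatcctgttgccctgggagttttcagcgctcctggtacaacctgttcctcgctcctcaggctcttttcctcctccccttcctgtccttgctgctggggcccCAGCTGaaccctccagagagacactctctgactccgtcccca
Msx2 (chr13:53472731-53473030, minus strand): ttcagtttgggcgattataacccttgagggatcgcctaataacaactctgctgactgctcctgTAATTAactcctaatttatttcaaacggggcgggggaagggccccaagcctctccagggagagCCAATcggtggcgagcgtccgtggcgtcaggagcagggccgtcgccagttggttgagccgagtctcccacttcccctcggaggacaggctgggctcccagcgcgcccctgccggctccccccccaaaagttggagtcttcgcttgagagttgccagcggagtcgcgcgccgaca
Neurog1 (chr13:56252131-56252430, minus strand): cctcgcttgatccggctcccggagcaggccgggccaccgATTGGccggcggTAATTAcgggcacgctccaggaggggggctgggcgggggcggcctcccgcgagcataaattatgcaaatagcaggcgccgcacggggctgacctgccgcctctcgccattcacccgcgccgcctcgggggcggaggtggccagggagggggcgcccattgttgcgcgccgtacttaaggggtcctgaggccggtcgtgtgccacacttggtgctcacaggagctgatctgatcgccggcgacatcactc
Gc (chr5:89457849-89458148, minus strand): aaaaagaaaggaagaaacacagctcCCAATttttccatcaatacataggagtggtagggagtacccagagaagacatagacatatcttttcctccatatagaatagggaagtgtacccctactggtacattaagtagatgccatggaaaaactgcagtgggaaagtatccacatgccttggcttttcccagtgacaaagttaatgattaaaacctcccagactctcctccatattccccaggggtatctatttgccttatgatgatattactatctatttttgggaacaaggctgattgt
Sst (chr16:23890795-23891094, minus strand): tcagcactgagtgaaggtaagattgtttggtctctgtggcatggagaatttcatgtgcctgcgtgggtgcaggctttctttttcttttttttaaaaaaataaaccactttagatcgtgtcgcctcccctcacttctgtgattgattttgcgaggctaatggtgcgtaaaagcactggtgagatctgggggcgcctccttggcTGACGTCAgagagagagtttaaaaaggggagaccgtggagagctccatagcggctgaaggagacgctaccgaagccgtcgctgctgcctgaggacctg
The windows of Bmp8b, Msx2 and Neurog1 held 23, 22 and 32 CpG dinucleotides, Sst held 13, Kcna5 held 4 and Gc held 0. Across the 73 windows in regions with higher accessibility the median was 18 CpG at a GC content of 62.7%, across the 9 in regions with lower accessibility 14 CpG at 58.3%, and across all 32851 windows from RefSeq 7 CpG at 52.7%. The 379 windows in regions called neither higher nor lower had a median of 21 CpG at 62.3%, so CpG-rich starts were common to all 3 sets. Most exonic regions passed the adjusted p, so this set missed mainly the fold rule given below and is not an unchanged set. The CCAAT box was found in 46.6% of the windows with higher accessibility, 22.2% of those with lower and 37.4% of all windows. In the same order, the E-box was found in 20.5%, 44.4% and 16.3%, the homeodomain core in 4.11%, 0% and 5.29%, the TATA box in 4.11%, 11.1% and 13.6%, and the cyclic AMP response element in 5.48%, 0% and 1.79%. The 379 windows without a call held the CCAAT box in 38%, the E-box in 13.5%, the homeodomain core in 2.64%, the TATA box in 6.6% and the cyclic AMP response element in 3.43%. With 9 windows the set with lower accessibility is small, and a match is a run of letters and not a bound site.

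Libraries differed in depth. The library sizes implied by the deposited values were 44026681, 38973375 and 17772951 counts in Chd3/4Δβ and 17629713, 18427566, 20914104 and 42439029 counts in Control, of which 48.1% to 49.6% lay in listed regions. Exonic regions held 580190 to 1519407 counts per Chd3/4Δβ library and 630124 to 1622155 per Control library, with a median per region of 69 to 198 counts over the 7 libraries. The column names of Control replicates 1 to 3 carry 1 lane tag, that of Chd3/4Δβ replicate 3 carries another, and the names of the 3 deeper libraries (Chd3/4Δβ replicates 1 and 2 and Control replicate 4) carry none. All Control names begin with Mi2, all Chd3/4Δβ names begin with Chd3-4Db, and no lane tag occurs in both groups. The meaning of these prefixes and tags is not stated. Name series and group therefore coincide, and a difference between library series was not tested apart from genotype. Across exonic regions, log2 CPM correlated at r = 0.952 to 0.982 within Chd3/4Δβ, 0.975 to 0.983 within Control and 0.743 to 0.82 between the groups, over regions that were listed because they differed. CPM is a count divided by the implied library size and scaled to 1000000. The table lists only regions that the authors' own test had called at a false discovery rate under 0.05, so every region here was already selected on this contrast, and the p-values below rank and size differences within that selection.

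Exonic chromatin changed in both directions. Calls required an adjusted p under 0.05 together with a log2 fold change of at least 1 in size, and a call of higher or lower refers to Chd3/4Δβ relative to Control. Of the 2949 exonic regions 814 were higher (27.6%, against a background of 37.0% of all 61288 listed regions) and 580 were lower (19.7%, against 20.4%). The other 1555 were not called, most of them for the fold rule alone. Gains were thus 58.4% of the exonic calls and 64.5% of the calls over all listed regions. The median exonic log2 fold change was -0.34 (quartiles -0.86 and 1.11), against 0.56 over all listed regions, so the middle exonic region was lower in Chd3/4Δβ although gains outnumbered losses past the threshold. With the adjusted p alone, 1299 exonic regions were higher and 1571 lower (backgrounds 52.6% and 44.9%), and with a 4-fold change 328 were higher and 84 lower (backgrounds 17.9% and 2.87%). The balance of directions differed between ways of scaling the libraries. The alternatives were TMM and RLE scaling with the same test, and cyclic loess with limma-trend, which changes the test as well as the scaling. All 3 were estimated on the listed regions alone. These regions had been selected for a difference, so such scaling centres on changed regions. Each count and value given below under TMM, RLE or loess carries this limit. Under TMM, RLE and cyclic loess, gains were 44.5%, 38.9% and 41.6% of exonic calls and 53.2%, 48% and 47.2% of all calls, so losses outnumbered gains in exons under all 3. Relative to library-size scaling, the median of all listed regions shifted by -0.21, -0.31 and -0.42 on the log2 scale. The exonic share of gains was below that of all listed regions each time. The median exonic log2 fold change was -0.20 within the shallower libraries alone (1 Chd3/4Δβ and 3 Control) and -0.23 within the deeper ones (2 and 1). Each of these fits has 1 library in 1 group, which is assumed to vary like the others, so only sizes of differences are read from them.

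**Figure D1:**
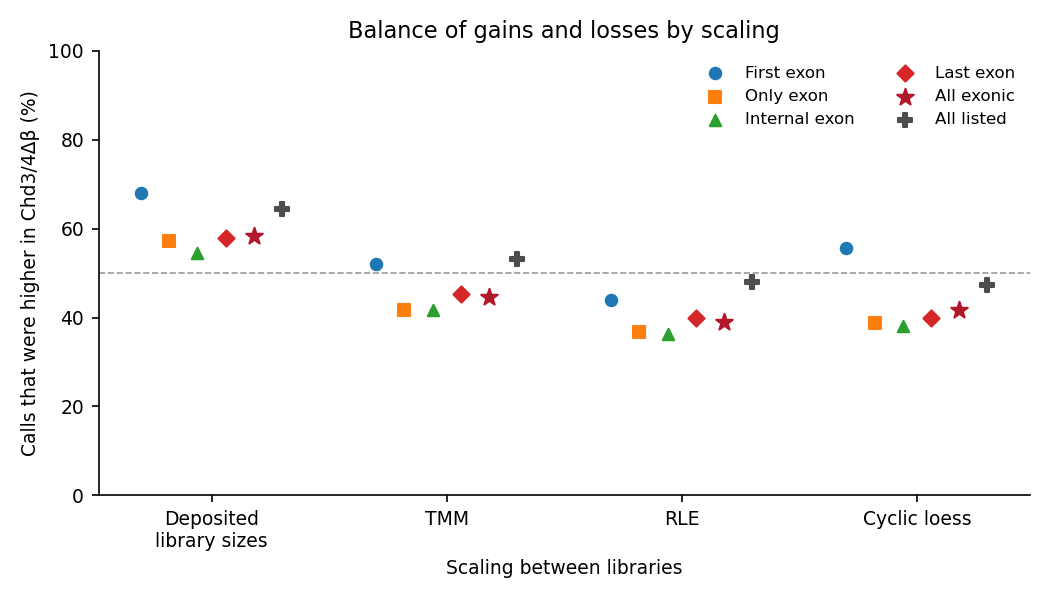
Share of calls that were gains in Chd3/4Δβ (percent, vertical axis) for exonic regions and for all listed regions under 4 ways of scaling the libraries, of which cyclic loess also used another test (limma-trend). The exonic share was 58.4% with library sizes and 38.9% to 44.5% with the others, and it lay below the share of all listed regions each time. The others were estimated on the listed regions alone, which had been selected for a difference.

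Gained exonic regions had low levels in Control, and lost ones low levels in Chd3/4Δβ, which the fold rule favours among regions with a median of 4.22 CPM. These levels describe the calls and are no separate result. The 814 gained regions had a median of 4.48 CPM in Chd3/4Δβ and 1.13 CPM in Control, with a median log2 fold change of 1.75 (1.96 for all listed gains), and 380 of them lay below a mean of 1 CPM in Control. The 580 lost regions had a median of 1.12 CPM in Chd3/4Δβ and 3 CPM in Control, with a median log2 fold change of -1.39 (-1.39 for all listed losses), and 262 of them lay below 1 CPM in Chd3/4Δβ. The 3 Chd3/4Δβ libraries did not overlap the 4 Control libraries in 792 gained regions (97.3%) and 534 lost regions (92.1%), against 97.8% and 92% of all listed gains and losses. Chd3/4Δβ replicate 3 was the library nearest to Control in 507 of 814 gained regions (62.3%) and 366 of 580 lost regions (63.1%). Without it 870 exonic regions were higher and 660 lower. The threshold cut through a continuous range: Tbck (log2 fold change -1.0004) and Slc6a15 (-1.0022) lay just inside it, and Gm26807 (-0.9994), Foxp1 (-0.9972) and Palm3 (0.9951) just outside.

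The largest gains stood where Control cells had almost no signal, which a ranking by fold change favours. They were ranked among called regions whose groups did not overlap and whose mean level was at least the exonic median of 4.22 CPM. A region over an only exon at Fabp4 (chr3:10204692-10205728, GRCm38), the fatty acid-binding protein of adipocytes and macrophages, had 9.97, 9.03 and 10.1 CPM in Chd3/4Δβ and 0.34, 0.109, 0.335 and 0.283 CPM in Control (log2 fold change 5.14, SE 0.278, adjusted p = 3.49e-12). An only exon is the exon of a transcript annotated with 1 exon, often a fragment of a longer gene. The last exon of Dtd2, which encodes a D-aminoacyl-tRNA deacylase, had 11.5, 12.3 and 9.85 CPM against 0.397, 0.488, 0.574 and 0.189 CPM in Control (4.88, SE 0.28, adjusted p = 7.02e-12). At both genes the lowest Chd3/4Δβ library was many times above the highest Control library, and the regions lay 3348 and 6558 bases from the nearest annotated TSS.

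Internal exons of channel, polarity and transporter genes followed. Exon 13 of 14 of Cacnb1, a β subunit of voltage-gated calcium channels, had 16.8, 16.1 and 10.2 CPM in Chd3/4Δβ and 0.737, 0.705, 1.48 and 0.259 CPM in Control (4.29, SE 0.353, adjusted p = 3.97e-08). Exon 4 of 13 of Crb2, a Crumbs protein of apical cell polarity, had 13.8, 11.8 and 9.23 CPM against 0.851, 0.488, 0.574 and 0.825 CPM (4.05, SE 0.242, adjusted p = 1.34e-11). Both were separated by several-fold in every library, with replicate 3 the lowest of the Chd3/4Δβ libraries. Exon 2 of 10 of Slc1a6, a glutamate transporter of Purkinje cells, averaged 10.4 CPM in Chd3/4Δβ and 0.793 CPM in Control (3.71), exon 8 of 11 of Slc36a3, of the proton-coupled amino acid transporter family, 11.3 and 1.09 CPM (3.45), and exon 6 of 9 of Krt71, a hair-follicle keratin, 11.3 and 1.04 CPM (3.44). The only exons Gm43999 (13.7 and 0.99 CPM, 3.72) and Gm38235 (9.6 and 0.777 CPM, 3.66), both predicted transcripts, were also among the 10 with the largest gains by this ranking.

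Gains also lay in first and only exons at start sites. The first exon of Bmp8b, a bone morphogenetic protein ligand whose promoter window is printed above, had 28.1, 24.3 and 20.6 CPM in Chd3/4Δβ and 2.55, 3.2, 2.2 and 3.18 CPM in Control (3.12, SE 0.181, adjusted p = 8.54e-12). The exon of Kcna5, a voltage-gated potassium channel, had 18.8, 18.6 and 13.7 CPM against 1.93, 0.923, 2.25 and 2.95 CPM (3.03, SE 0.243, adjusted p = 1.88e-09). Each Chd3/4Δβ value lay above each Control value at both genes. The first exon of the homeobox gene Msx2 had 13.8, 12.7 and 7.26 CPM against 1.47, 1.14, 1.53 and 1.77 CPM (2.91, adjusted p = 1.24e-09), and the exon of the proneural factor gene Neurog1 had 11.7, 9.96 and 7.09 CPM against 1.42, 1.63, 1.48 and 1.7 CPM (2.62, adjusted p = 1.98e-09). Rbakdn, a non-coding transcript, had 14.7, 13.2 and 10.9 CPM against 2.38, 1.36, 2.63 and 1.37 CPM at its first exon (2.77, adjusted p = 1.61e-09). In all 3 the groups were apart.

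In the ranking with a floor of 4.22 CPM in mean level, the largest losses were sites of moderate height in Control cells, which that floor favours. Larger falls lay below the floor, such as Gpr157 (0.145 CPM in Chd3/4Δβ and 1.81 CPM in Control, -3.76). The last exon of Cdc23, a subunit of the anaphase-promoting complex, had 0.409, 0.462 and 1.52 CPM in Chd3/4Δβ and 8.79, 10.5, 7.7 and 6.79 CPM in Control (-3.61, SE 0.339, adjusted p = 2.18e-08). Its region lies where Cdc23 and Kif20a overlap, so the name is uncertain. Exon 8 of 11 of Prr14l had 2.04, 1.28 and 1.13 CPM against 7.94, 10.7, 7.84 and 6.5 CPM (-2.42, SE 0.249, adjusted p = 4.17e-08), and exon 10 of 19 of Smurf2, a ubiquitin ligase of transforming growth factor signalling, had 1.23, 1.05 and 2.31 CPM against 6.41, 8.95, 7.84 and 5.96 CPM (-2.33, adjusted p = 1.88e-07). No Chd3/4Δβ library reached the lowest Control library at these genes. Exon 17 of 38 of Thada, a gene in a human diabetes risk locus, had 3.18, 2.67 and 6.25 CPM against 17.3, 17.6, 17.7 and 15.7 CPM (-2.14, adjusted p = 7.47e-08). The last exon of Itgal, a leukocyte integrin subunit, had 1.66, 1.28 and 3.38 CPM against 7.32, 7.27, 10.8 and 5.8 CPM (-1.96, adjusted p = 8.32e-06). Replicate 3 had the highest of the Chd3/4Δβ values at Cdc23, Smurf2, Thada and Itgal. The others among the 10 were Gm536 (2.23 CPM in Chd3/4Δβ and 10.1 CPM in Control, -2.29), Ccdc174 (2.01 and 8.86 CPM, -2.28), Gm50481 (3.93 and 15.9 CPM, -2.06), Rasa4, a Ras GTPase-activating protein (2.25 and 8.21 CPM, -1.98), and Gm41562 (5.48 and 20.8 CPM, -1.97). The Gm41562 region is annotated to exon 13 of 13 of a transcript that could not be named here. Its name came from the nearest TSS alone, 5602 bases away, so the exon may belong to another gene.

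**Figure D2:**
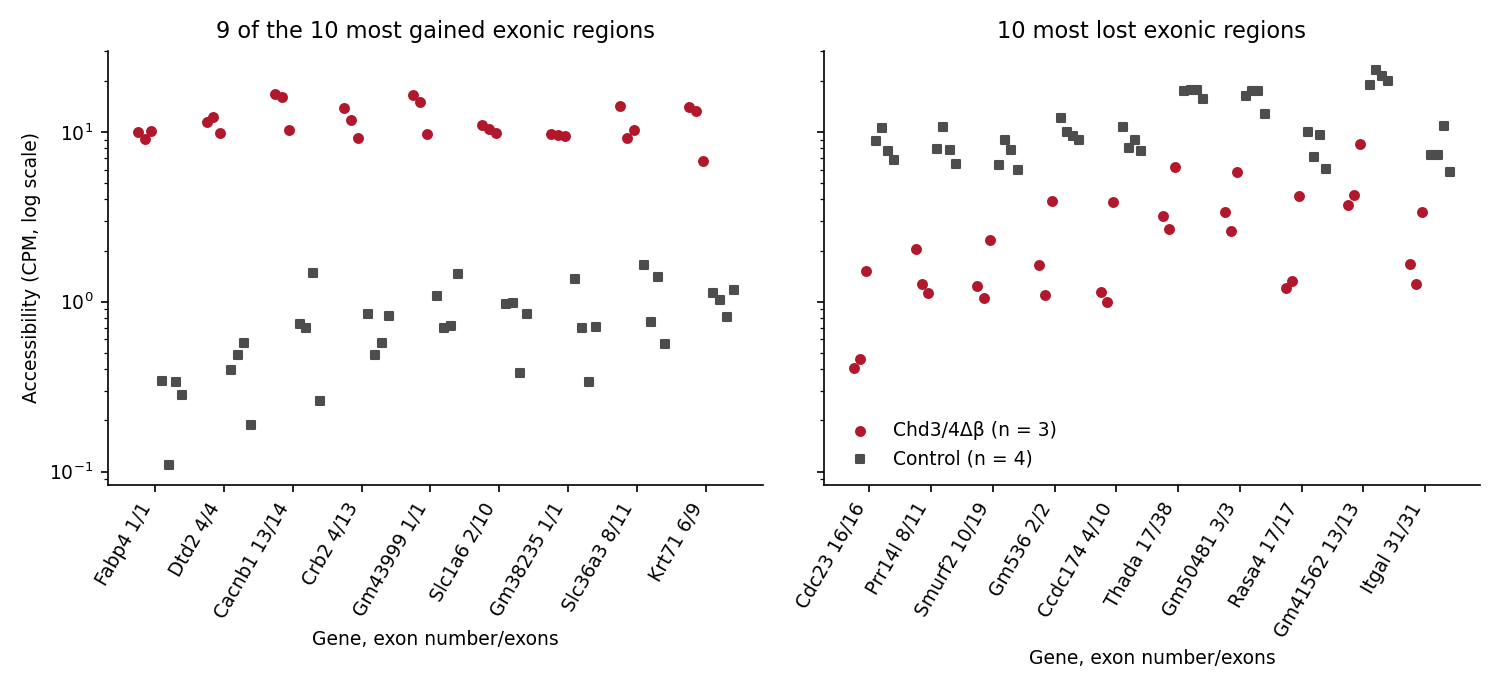
CPM (log axis) in each Chd3/4Δβ and Control library for 9 of the 10 exonic regions with the largest gains and the 10 with the largest losses by the ranking used. Fabp4 had 9.03 to 10.1 CPM in Chd3/4Δβ and 0.109 to 0.34 CPM in Control, and Cdc23 had 0.409 to 1.52 CPM in Chd3/4Δβ and 6.79 to 10.5 CPM in Control.

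Losses were rarest in first exons, where 66 of 759 regions were lower. Sec11a, a catalytic subunit of the signal peptidase that trims secreted proteins in the endoplasmic reticulum, had 2.11, 3.16 and 5.18 CPM in Chd3/4Δβ at its first exon and 13.9, 12.7, 13 and 9.76 CPM in Control (-1.87, SE 0.239, adjusted p = 1.04e-06). Medag had 2.54, 1.87 and 3.15 CPM against 7.66, 8.74, 9.13 and 8.51 CPM (-1.78, adjusted p = 3.3e-07). Safb, a nuclear scaffold-attachment factor, had 1.7, 4.31 and 2.36 CPM against 6.75, 7.16, 7.41 and 10.3 CPM (-1.50, adjusted p = 6.11e-05). Within the deeper libraries, with 1 Control library, the Safb difference was -1.78. Among only exons, Gm49502 (5.99 CPM in Chd3/4Δβ and 21.6 CPM in Control, -1.85), 6720475M21Rik (1.74 and 6.3 CPM, -1.93) and Smim32 (3.83 and 12.4 CPM, -1.69) were lower.

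Position in the gene separated how often exonic regions passed the fold rule and in which direction. First-exon regions (759) were higher in 141 and lower in 66 (68.1% gains), only-exon regions (523) in 139 and 104 (57.2%), internal-exon regions (661) in 204 and 170 (54.5%), and last-exon regions (1006) in 330 and 240 (57.9%). First exons were called least often, in 27.3%, against 56.6% of internal and 56.7% of last exons. With the adjusted p alone, 298 first-exon regions were higher and 447 lower of 759, and 476 and 490 of 1006 last-exon regions. The classes thus differed in the size of the changes, as every listed region had been selected for a difference. They were also the broadest and most open, with a median width of 1254 bases and median levels of 17.4 CPM in Chd3/4Δβ and 12.4 CPM in Control, against 735 bases, 3.03 CPM and 2.79 CPM for last exons. In each of the 4 classes the median log2 fold change was below 0 (-0.32 to -0.40), although the median level was higher in Chd3/4Δβ than in Control. The share of gains was highest in first exons in each setting run except the one with no fold threshold, where it was 40% and the lowest of the 4 classes. For comparison, gains were 71.2% of calls in promoter regions (1465 higher and 594 lower of 6643), 71.8% in intergenic regions, 59.3% in intronic regions and 58% at transcription termination sites, so first exons stood near promoters and the other exon classes near introns.

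**Figure D3:**
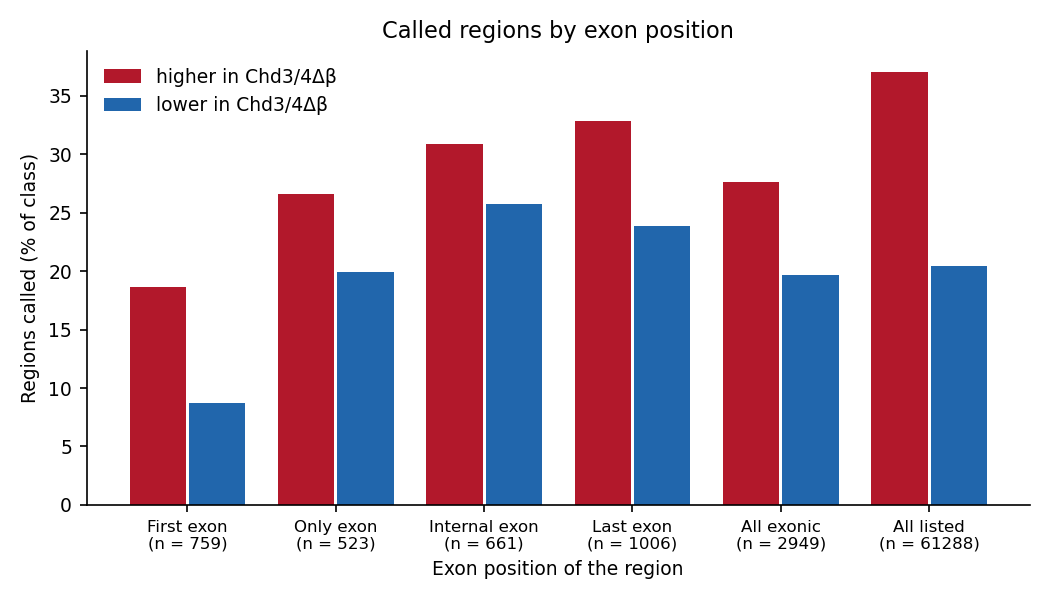
Percent of regions higher and lower in Chd3/4Δβ for first, only, internal and last exons, all exonic regions and all listed regions. First exons were higher in 18.6% and lower in 8.7%, and last exons in 32.8% and 23.9%.

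Calls in both directions became more frequent with distance from the TSS up to 20000 bases. Within 300 bases of the nearest TSS 21% of exonic regions were higher and 8.01% lower, at 301 to 1000 bases 21.9% and 15.6%, at 1001 to 5000 bases 30.3% and 23.7%, at 5001 to 20000 bases 31.6% and 27.8%, and beyond 20000 bases 36.6% and 22.3%. Level ran with distance: the median Chd3/4Δβ level was 16.8 CPM in the nearest bin and 2.91 CPM in the farthest, and the Control level 11.3 and 2.17 CPM. By quartile groups of the mean level, the lowest group had 43.1% higher and 35.1% lower, and the highest 7.46% and 3.12%. By quartile groups of width the narrowest had 44.9% higher and 26.6% lower and the widest 12.8% and 10.6%. Since near, wide and high-level regions were largely the same regions, the parts of distance, width and level in these shares cannot be told apart here. Gain shares also differed with exon number. Regions over exon 11 or later (424) were higher in 129 and lower in 126, a gain share of 50.6%, against 62.2% over exon 1 and 62.3% over exon 2. Among internal exons alone there was no such order: the share was 57.9% over exon 2, 50% over exons 3 to 5, 52.3% over exons 6 to 10 and 57.1% over exon 11 or later. Within level groups, from the lowest to the highest, it was 48.2%, 54%, 47.9% and 60% (the last of 10 calls) over exon 11 or later, against 56.7%, 55.2%, 69.6% and 72.1% over earlier exons.

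**Figure D4:**
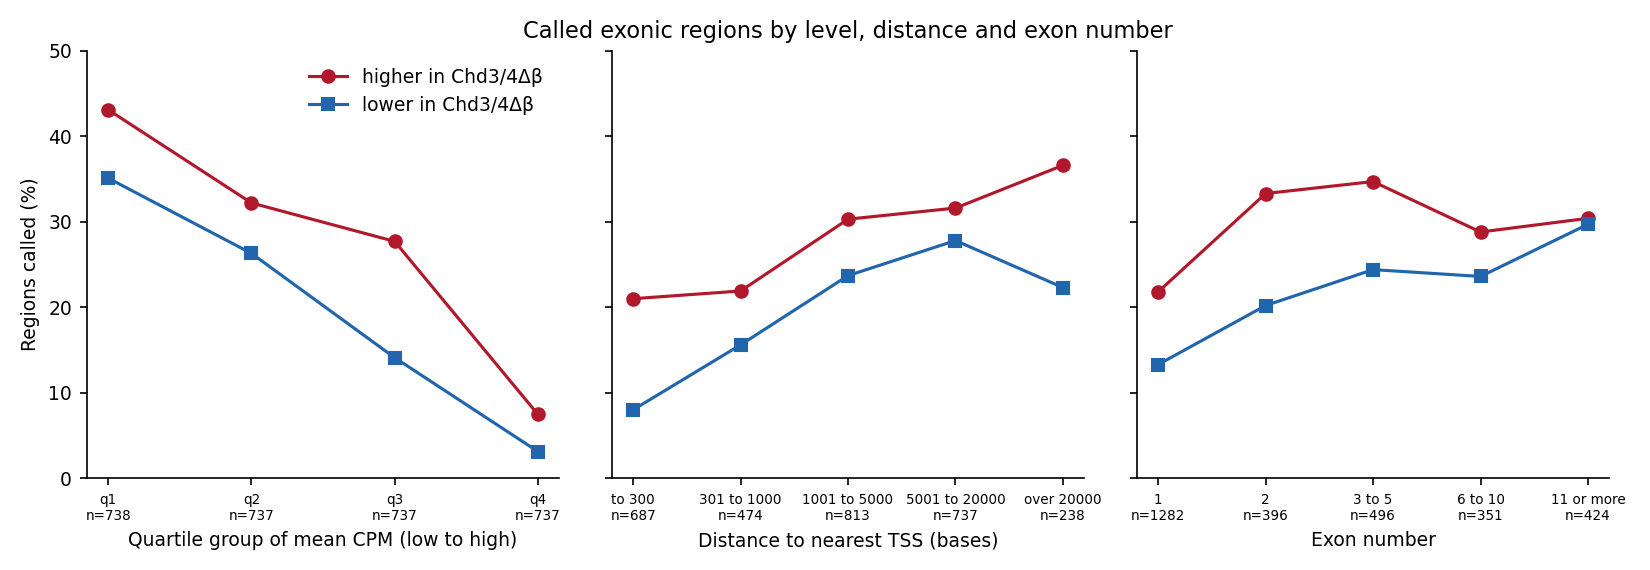
Percent of exonic regions higher and lower in Chd3/4Δβ by quartile group of mean level, by distance to the nearest TSS in bases and by exon number. The lowest level group had 43.1% higher and 35.1% lower and the highest 7.46% and 3.12%, and from exon 11 on the shares were 30.4% and 29.7%.

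The balance of calls varied with the kind of gene. Regions named for protein-coding genes were higher in 575 and lower in 451 of 2277, those for long non-coding RNAs in 70 and 40 of 221, and those for pseudogenes in 28 and 7 of 47. The pseudogene regions had a median of 3.31 CPM in Chd3/4Δβ and 1.43 CPM in Control. Reads from a pseudogene and its parent gene may be shared, so these counts are uncertain.

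The share of all listed-region counts that fell in exons was lower in Chd3/4Δβ. It was 6.96%, 6.97% and 6.69% in Chd3/4Δβ and 7.31%, 7.47%, 7.42% and 7.78% in Control, and the groups did not overlap (6.87% ± 0.158 and 7.5% ± 0.202, SD, n = 3 and 4, difference -0.622 percentage points, exact two-sided permutation p = 0.0286, the smallest that 35 assignments allow, Benjamini-Hochberg adjusted 0.0457 over 8 shares). First exons took 3.64% ± 0.134 in Chd3/4Δβ and 4.12% ± 0.184 in Control (n = 3 and 4, exact permutation p = 0.0286, adjusted 0.0457), and only exons 1.16% ± 0.0165 and 1.31% ± 0.0494 (exact permutation p = 0.0286, adjusted 0.0457). Internal exons took 0.899% ± 0.004 in Chd3/4Δβ and 0.874% ± 0.018 in Control (exact permutation p = 0.0857, adjusted 0.114), and last exons 1.17% ± 0.0183 and 1.19% ± 0.0181 (exact permutation p = 0.343), neither of which passed the test. The exonic regions over 1000 bases from a TSS (1788 regions, 60.6%) took 2.1% in Chd3/4Δβ and 2.07% in Control (difference 0.0264, exact permutation p = 0.229, adjusted 0.261), so the lower share was measured in first and only exons and not in the regions away from a TSS. Promoter regions moved the same way, with 35.1% ± 1.05 in Chd3/4Δβ and 41.1% ± 0.5 in Control (exact permutation p = 0.0286, adjusted 0.0457). A share falls when counts elsewhere rise, and because the regions were listed for their difference, the share describes the list and not the whole genome. That selection used these same groups, so the libraries were not exchangeable over the list. The permutation p-values therefore describe how far the groups stood apart within the list and are no independent test.

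**Figure D5:**
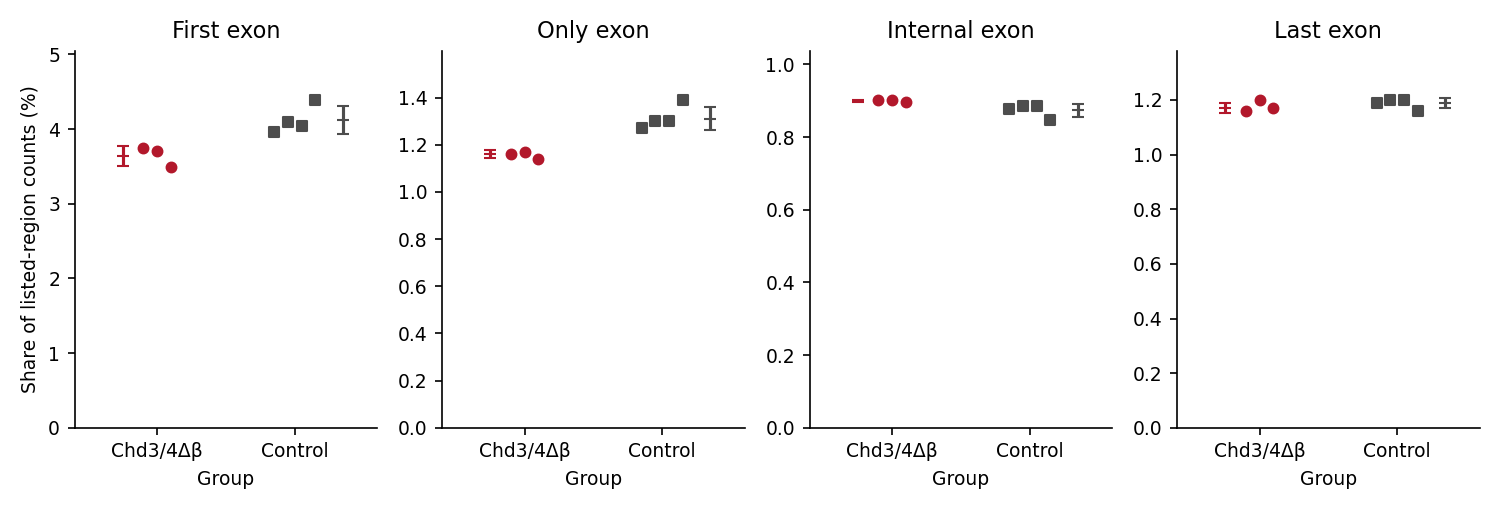
Percent of listed-region counts in first, only, internal and last exons in each Chd3/4Δβ and Control library, with group mean ± SD. First exons took 3.49% to 3.74% of the counts in the Chd3/4Δβ libraries and 3.96% to 4.39% in the Control libraries, and last exons 1.16% to 1.2% in both groups.

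Exons of β-cell genes lost accessibility or stayed below the fold threshold, and none gained. The list of β-cell maturity and function genes had 13 exonic regions, of which 0 were higher and 6 lower (median log2 fold change -0.88, against -0.34 over all exonic regions). The counts of this and the following lists stand beside 27.6% higher and 19.7% lower over all exonic regions. The 6 were 3 regions of Ero1b, an oxidase that helps fold proinsulin, and last exons of Ptprn2, a secretory granule phosphatase, Prlr, the prolactin receptor, and Sytl4, which docks insulin granules. Ero1b exon 3 had 7.25, 9.39 and 19.2 CPM in Chd3/4Δβ and 34.9, 33.8, 31.2 and 31.5 CPM in Control (-1.49, SE 0.262, adjusted p = 0.000397), and its last exon had 9.35 and 19.5 CPM (-1.11) and 2.43 and 5.43 CPM (-1.27) at separate regions. Chd3/4Δβ replicate 3 stood well above the other Chd3/4Δβ libraries at Ero1b, and at both last-exon regions it reached the lowest Control library (15.4 CPM, against 15 CPM in Control, and 4.28 against 4.12 CPM), so the groups overlapped there. Both last-exon calls were lost without Chd3/4Δβ replicate 1 (-0.88 and -0.99), and the first of them also without Chd3/4Δβ replicate 2 (-0.90), without Control replicate 4 (-0.88) and with the replicate block (-0.97). Within the shallower libraries, with 1 Chd3/4Δβ library, the differences of the 3 Ero1b regions were -0.79, -0.12 and -0.15. Within the deeper libraries, with 1 Control library, they were -1.92, -2.14 and -2.30. Ptprn2 had 2.86, 3.69 and 4.67 CPM in Chd3/4Δβ and 8.11, 9.44, 8.75 and 8.62 CPM in Control (-1.25, adjusted p = 1.76e-05), Prlr 6.86, 9.03 and 11.4 CPM against 17.4, 19.5, 17.8 and 17.9 CPM (-1.01, adjusted p = 3.44e-05), and Sytl4 3.7, 3.46 and 3.66 CPM against 8, 8.25, 7.94 and 6.93 CPM (-1.10, adjusted p = 3.74e-05). The groups did not overlap at any of these 3 genes. The list kept 0 gains and had 9, 9 and 7 losses under TMM, RLE and cyclic loess scaling.

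Exons of Ins1 and of β-cell transcription factors were lower in Chd3/4Δβ by less than the fold threshold with library-size scaling. Ins1, the rodent-specific insulin gene, had 82.4, 94.2 and 138 CPM in Chd3/4Δβ and 197, 205, 205 and 161 CPM in Control at its last exon (-0.88, SE 0.146, adjusted p = 0.000118), and the groups did not overlap. Pdx1, a master regulator of pancreas and β-cell identity, had 29.2, 31.2 and 31.3 CPM in Chd3/4Δβ and 42.2, 48.8, 46.5 and 43.5 CPM in Control (-0.57, adjusted p = 0.000148). Nkx6-1 had 9.56, 11.6 and 16.8 CPM against 22.3, 25.3, 23.9 and 20.4 CPM (-0.87, adjusted p = 0.000163), and Mafa, an activator of insulin transcription, 45, 43.5 and 47.9 CPM against 63.4, 71.5, 66.2 and 58.6 CPM (-0.51, adjusted p = 0.000232). All 4 were lower in every Chd3/4Δβ library. Small falls were common among highly open exonic regions. In the quartile group with the highest mean level, 536 of 737 were lower by the adjusted p alone, with a median log2 fold change of -0.35. Ins1 and Nkx6-1 passed the threshold under TMM (-1.09 each), under RLE (-1.18 each) and without Chd3/4Δβ replicate 3 (-1.12 each), while under cyclic loess Ins1 was at -0.31, Nkx6-1 at -0.86, Pdx1 at -0.35 and Mafa at -0.20. The only exonic region annotated to an Ins2 transcript lies 15395 bases from the nearest TSS inside another gene's span, so it says little about Ins2 itself (3.66 CPM in Chd3/4Δβ and 5.66 CPM in Control, -0.60). Of 28 genes that the study names, 7 had an exonic region under the names assigned here. Of these regions 2 (Kcna5 and Sst) were higher and 0 lower. The 76 regions named by the nearest TSS alone, among them the lower Gm41562 region, may belong to other genes. Counts by gene name, here and in the gene lists, can therefore miss a region.

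Genes normally silent or low in β cells gained exonic accessibility in several cases. Among genes called disallowed in β cells, 4 of 6 regions were higher and 0 lower (median 1.46). Ank3, an ankyrin of axon initial segments, had 4.18, 4.49 and 2.76 CPM in Chd3/4Δβ and 0.454, 0.109, 0.287 and 0.189 CPM in Control at exon 2 of 17 (3.94, SE 0.364, adjusted p = 8.47e-09), whereas its last exon averaged 3.62 and 5.47 CPM and passed no fold threshold (-0.58). Tgm2, a transglutaminase, had 9.18, 8.16 and 6.3 CPM against 1.42, 1.14, 1.72 and 1.25 CPM (2.52, adjusted p = 6.28e-09). Slc16a7, a monocarboxylate transporter, averaged 26.9 ± 3.97 CPM in Chd3/4Δβ and 7.63 ± 1.22 CPM in Control (SD, n = 3 and 4, 1.81), and Zcchc24 10.9 ± 3.95 and 5.11 ± 0.61 CPM (1.10). Slc16a1, the transporter best known from this list, had 20.4 ± 2.9 CPM in Chd3/4Δβ and 11.4 ± 1.74 CPM in Control at its first exon (0.84), short of the threshold. Under TMM, RLE and loess scaling 3, 3 and 3 of the 6 were higher and 0 lower.

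Genes of other islet endocrine cells and progenitors had 6 regions, of which 4 were higher and 0 lower (median 1.30). The first exon of Gc, a vitamin D-binding protein enriched in α cells, had 17.1, 20 and 24.4 CPM in Chd3/4Δβ and 6.01, 5.92, 9.99 and 8.65 CPM in Control (1.41, SE 0.187, adjusted p = 1.52e-06). Pou3f4, a POU homeodomain factor of α cells, had 15.1, 17.5 and 17.2 CPM against 4.88, 4.61, 7.08 and 6.83 CPM (1.49, adjusted p = 3.27e-07). Both were above every Control library. The first exon of Sst, the hormone of δ cells, had 3.18, 4.36 and 2.03 CPM in Chd3/4Δβ and 1.42, 1.03, 1.86 and 1.18 CPM in Control (1.25, SE 0.293, adjusted p = 0.00106). The Sst call was lost under RLE scaling (0.92) and without Chd3/4Δβ replicate 2 (0.95). Within the shallower libraries, with 1 Chd3/4Δβ library, the Sst difference was 0.48, against 1.67 within the deeper ones. One region of Etv1 was higher (4.03 and 1.54 CPM, 1.35) and the other was not called (12.5 and 6.72 CPM, 0.88). Insm1, a pan-endocrine factor, had 64 and 79.8 CPM (-0.32).

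Markers of cells that a sort could carry along were read in the same exons. Of the 8 β-cell markers 5 had an exonic region, whose summed level was 169 to 237 CPM in Chd3/4Δβ and 288 to 358 CPM in Control, and 0 of the 5 passed the fold rule (2, Ins1 and Nkx6-1, were lower under TMM and RLE). Of 6 α-cell markers 1 (Gc) had a region, at 17.1 to 24.4 and 5.92 to 9.99 CPM, and of 3 δ-cell markers 2 (Sst and Etv1), with a summed level of 16.2 to 22.7 and 8 to 10.8 CPM. Of 6 endothelial markers Plvap had 14.9, 14.1 and 7.03 CPM in Chd3/4Δβ and 4.48, 4.29, 3.2 and 4.74 CPM in Control (1.54), of 7 immune markers Ptprc had 1.86, 1.98 and 1.97 against 0.624, 0.705, 0.43 and 0.801 CPM (1.56), and of 5 glial markers Gfap had 11, 8.06 and 4.44 against 4.71, 4.12, 4.16 and 2.66 CPM (1.05), the last with overlapping groups and no call under the other 3 scalings. Ptprc was not called under loess scaling. Of 7 mesenchymal markers Acta2 alone had a region (1.26 and 2.11 CPM, not called), and the PP and epsilon (2), acinar (10) and ductal (6) markers had 0. The part of other cells in the gains was not tested, and in bulk libraries fewer cells with an open site and a less open site in each cell cannot be told apart.

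Among developmental transcription factors, Hox genes had gains only and the other families had calls in both directions. Of 5 Hox regions 3 were higher and 0 lower (median 1.63): Hoxc9 with 4.5, 4.75 and 3.94 CPM in Chd3/4Δβ and 1.13, 1.09, 1.34 and 0.943 CPM in Control (1.98), Hoxb7 with 1.93 and 0.523 CPM (1.90, not called under loess) and Hoxa5 with 5.54 and 1.82 CPM (1.63). Of 36 regions of other homeobox genes 12 were higher and 3 lower (median 0.54), but the balance became 12 and 10 under TMM, 9 and 10 under RLE and 11 and 7 under loess. Lmx1a, a factor of dopaminergic and roof plate development, had 3.2, 3.54 and 3.83 CPM in Chd3/4Δβ and 0.0567, 0.109, 0.0956 and 0.33 CPM in Control at its last exon (4.25, SE 0.389, adjusted p = 7.36e-09), whereas Pou2f1, a widely expressed octamer-binding factor, had 1.36, 3.21 and 1.35 CPM against 6.81, 6.78, 5.79 and 7.21 CPM (-1.72, adjusted p = 1.19e-05). Of 18 SOX and FOX regions 4 were higher and 1, an exon of the antisense RNA Foxl2os, was lower (0.711 CPM in Chd3/4Δβ and 1.49 CPM in Control, -1.09). The Foxl2os call was lost without Chd3/4Δβ replicate 2 (-0.74), without Control replicate 3 (-0.94) and within the deeper (-1.16) and the shallower (-0.84) libraries. One of the 4 gains, Foxr1, turned under cyclic loess (-0.49). Foxp2 had 3 exonic regions, of which the last-exon one was higher (4.73 and 0.733 CPM, 2.63). The bHLH, KLF, GATA, EGR and AP-1 genes had 4 higher and 3 lower of 25, and zinc-finger (Zfp) genes 12 and 12 of 42. Losses outnumbered gains in both of those lists under TMM, RLE and loess. Within them, Osr2 had 20.6, 18.3 and 17.1 CPM against 5.16, 4.78, 6.26 and 7.59 CPM in Control (1.64), and Zfp143 7.65, 7.7 and 8.27 CPM against 0.227, 0.271, 0.239 and 0.189 CPM (5.11, adjusted p = 3.99e-12).

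Cadherin, matrix and potassium channel genes had more gained than lost exonic regions under all 4 scalings. Of 26 cadherin and protocadherin regions 11 were higher and 3 lower (median 0.93), with Cdh15, muscle cadherin, at 6.61, 6.36 and 4.39 CPM in Chd3/4Δβ and 0.908, 0.488, 1.53 and 0.73 CPM in Control (2.68). First exons of the clustered protocadherins are related copies, and how far reads were shared between them was not tested. Of 21 collagen, laminin and integrin regions 11 were higher and 3 lower (median 1.07): Itga7, a laminin receptor of muscle, averaged 3.43 and 0.182 CPM (4.28), while Col5a2, a fibrillar collagen chain, had 0.557 and 3.72 CPM (-2.65). Of 24 potassium channel regions 9 were higher and 4 lower (6 and 4, 6 and 5, and 8 and 4 under TMM, RLE and loess), led by Kcna5, with Kcnk18, a background potassium channel, at 6.11 and 1.22 CPM (2.34). Calcium and sodium channels had 3 higher and 4 lower of 13. Neuronal adhesion and synapse genes had 5 higher and 2 lower of 12, with Nrxn3, a presynaptic adhesion protein, higher at 2 exons (7.84 and 0.845 CPM, 3.27, and 2.02 and 0.573 CPM, 1.77), but 1 higher and 2 lower under loess.

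Receptor genes had more losses than gains, by a margin that changed with the scaling, and histone genes had no calls. G protein-coupled receptors had 11 higher and 13 lower of 52, and 8 and 17, 7 and 19, and 6 and 16 under TMM, RLE and loess. Gpr179, a protein of retinal bipolar cells, averaged 5.8 CPM in Chd3/4Δβ and 0.54 CPM in Control (3.48), and P2ry6, a receptor for uridine nucleotides, 0.581 and 3.36 CPM (-2.67). Solute carriers had 15 higher and 10 lower of 47, but 14 and 14, 13 and 14, and 13 and 12 under TMM, RLE and loess. Histone genes (8 regions) and genes matched as ribosomal (6 regions, 3 of them in fact Rps6k-type kinases) had 0 calls, with changes below the fold threshold, except that 2 and 3 of the ribosomal set were lower under TMM and RLE. The list of chromatin regulators had 8 regions (Arid1a, Arid1b, Chd1, Chd6, Chd7, Dnmt3a, Kmt2a and Tet2), none of a NuRD subunit. Chd6 was higher (6.72, 4.88 and 3.71 CPM in Chd3/4Δβ and 1.99, 2.12, 1.72 and 1.46 CPM in Control, 1.52, adjusted p = 2.05e-05) and Chd7 lower (1.07, 1.41 and 1.52 CPM against 3.86, 4.88, 3.63 and 3.11 CPM, -1.55, adjusted p = 3.76e-05). Both encode other members of the CHD family. Within the shallower libraries, with 1 Chd3/4Δβ library, the Chd6 difference was 0.94, against 1.99 within the deeper ones.

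With library-size scaling the 5 most open exonic regions were all lower in Chd3/4Δβ, 1 of them past the fold threshold. Among the 5 most open was Fosb, an AP-1 subunit, with 69.4, 148 and 131 CPM in Chd3/4Δβ and 260, 233, 227 and 302 CPM in Control over its last exon (-1.13, SE 0.264, adjusted p = 0.00923). It was the only one of the 5 to be called, and the call was lost without Chd3/4Δβ replicate 1 (-0.87), with the replicate block (-1.11) and under loess (-0.54). The difference of this last-exon region was -1.47 within the deeper and -0.87 within the shallower libraries. Another Fosb region, over an only exon, was also lower, just past the fold threshold (59.7 CPM in Chd3/4Δβ and 120 CPM in Control, -1.01, adjusted p = 5.73e-07). Junb, another AP-1 subunit with the highest mean level (175 and 224 CPM, -0.36), Egr1 (161 and 219 CPM, -0.45), Klf13 (162 and 208 CPM, -0.36) and Ins1 were below the fold threshold, and under loess scaling the differences of Junb (0.33), Egr1 (0.23) and Klf13 (0.31) turned positive. The widest region, 5028 bases over Gadd45g, a stress-response gene, had 102 CPM in Chd3/4Δβ and 130 CPM in Control (-0.36, but 0.17 under loess). Bcr (57 and 71 CPM, -0.32, 0.05 under loess) and Frzb, a secreted Wnt inhibitor (42.2 and 56.2 CPM, -0.42), followed.

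Calls were also counted within genes, without a test against the share that independent regions would give. The 2949 regions carried 2731 gene names, and 198 genes had more than 1 region. Of these, 17 had calls in both directions, 82 had only gains called, 52 had only losses called and 47 had no call. These counts stand beside 27.6% higher and 19.7% lower over all exonic regions. In 121 of the 198 genes all fold changes had 1 sign, and the rest had fold changes of both signs. Agap1 and Syne1, which encodes a giant nuclear envelope protein, had the most with 4 each. In Agap1 the last-exon region at 36597 bases from the nearest TSS was higher (6.77 and 2.77 CPM, 1.29, but 0.98 and no call under RLE) while the other last-exon region (0.96) and the upstream regions (-0.50 and -0.52) were not called. In Syne1 exon 118 of 146 was lower (0.881 and 3.02 CPM, -1.77), and the other 3 were above 0 without a call (0.55 to 0.83). Psmc2 and Wscd2 each had regions called in both directions with library-size scaling. The call of the Psmc2 gain did not hold under loess (0.47), nor that of the Wscd2 gain under RLE (0.97) and loess (0.01). The lower Psmc2 region was at -0.99 within the deeper libraries, and the lower Wscd2 region at -0.78 within the shallower ones. In Ero1b all 3 were lower.

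Listed promoter regions of the same genes were compared with called internal and last exons. Of all 6643 listed promoter regions 22.1% were higher, 8.94% were lower and 4584 were not called. Of the 534 gained internal and last exons 135 had a listed promoter region of the same gene, which was higher in 44, lower in 15, mixed in 1 and not called in 75. Of the 410 lost ones 110 had such a promoter, which was higher in 16, lower in 19 and not called in 75. Of the 723 exons without a call 229 had one, which was higher in 56 and lower in 14. Lower promoters alone were found for 19 of 110 lost exonic regions and 15 of 135 gained ones, against 8.94% of all listed promoter regions. These counts are by exonic region and not by gene. A gene can have more than 1 listed promoter region, so the share over all promoters is not a like measure, and no test was run. Close neighbours were rare: 89 exonic regions (3.02%, against 3.12% of all listed regions) had another listed region within 1000 bases, and the median gap was 8015 bases (8801 for all). Next to 27 gained exons the neighbour was higher in 6, lower in 8 and not called in 13, and next to 25 lost exons it was higher in 12, lower in 7 and not called in 6. Over all listed regions 37.0% were higher and 20.4% lower. The neighbour counts are small and were not tested against these shares.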

How the data were processed

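ATAC-seq libraries of Tomato+ β cells (3 Chd3/4Δβ and 4 Control) were compared over regions that the authors had called, counted, annotated and tested. Fragments longer than 600 bp had been excluded. The deposited table gives raw counts per region and library, CPM values calculated by the authors, and the authors' own fold changes, p-values and q-values. The authors' comparison columns were not used as results; their p-value and FDR columns served only to recover that 109675 regions had been tested, of which 61288 with an FDR under 0.05 are listed. For the aligner, the peak caller, the counter and any transposase offset, the entry is: not given in the sources used here.

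Deposited counts entered edgeR 4.0.16 (R 4.3.3, quasi-likelihood F-test, robust, prior count 2 for log2 CPM) with the library sizes implied by count over CPM. P-values were adjusted by the Benjamini-Hochberg method over 109675 regions, and calls needed an adjusted p under 0.05 and a log2 fold change of 1 or more in size. Shares were compared by exact permutation of libraries. limma 3.58.1 and DESeq2 1.42.0 served alternatives, and Python 3.11.15 with pandas 2.3.3 and scipy 1.17.1 the summaries. The fits were tested on simulated data.

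The labels name GRCm39, but the coordinates were read as GRCm38, since 69.4% of 5839 promoter regions were centred within 2000 bases of a RefSeq GRCm38.p6 gene end and 82.4% of 2356 exonic regions lay in their own gene's RefSeq span. Gene names came from the host transcript for 1754 regions, from the nearest TSS inside that gene's span for 759, from the RefSeq span for 352 and from the nearest TSS alone for 76, and 8 stayed unnamed. Strand plays no part in ATAC-seq, so overlapping genes cannot be told apart.

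Named regions were the 10 most gained and lost, the 3 per exon class and the 2 per gene list with the largest change, those of genes the study names, the 5 most open and 5 widest, and the 10 genes with most regions. Of these, 2 regions are not reported here. Other list members and markers were named after their values were seen. The members and the lists were chosen with earlier results of these data known. Alternatives were other scalings (TMM, RLE and cyclic loess with limma-trend), DESeq2, a filter of 2 CPM in 3 libraries, other thresholds, a replicate block, a depth term (above or below 30000000 counts) and leaving out each library. Fits within the deeper and the shallower libraries were added after seeing the data.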

Additional observations from a re-analysis of the deposited data

Results flagged for a closer look

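In 6 of the 120 values checked, 1 Control library stood apart from the other 3 by a gap that took up most of the Control range (Dixon's test). About 1 in 20 such groups is expected to do so by chance. Control replicate 2 was high at the last exon of Agap1 (3.36 CPM, with 2.55, 2.58 and 2.57 CPM in the other Control libraries) and at an only exon of Zfhx2 (12.4 CPM, with 10.9, 11 and 11.1 CPM), and low at the last exon of Pcdh15, a protocadherin of hair-cell tip links (1.19 CPM, with 2.38, 2.34 and 2.4 CPM). At Pcdh15 this value lay next to the highest Chd3/4Δβ value of 1.18 CPM. Control replicate 1 was low at exon 2 of 3 of Scn9a, a sodium channel of sensory neurons (1.02 CPM, with 1.52, 1.43 and 1.44 CPM). Control replicate 3 was high at exon 6 of 13 of Osbpl11 (2.63 CPM, with 1.36, 1.52 and 1.56 CPM), and Control replicate 4 at the first exon of Bcr (81 CPM, with 67.2, 67.2 and 68.5 CPM). At Agap1, Zfhx2 and Osbpl11 the Chd3/4Δβ libraries still lay above all Control libraries, at Pcdh15, Scn9a and Bcr below them.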

How the results depend on the processing

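The count of exonic regions higher in Chd3/4Δβ was 814 and of those lower 580. Lower regions numbered 936 under RLE scaling and 385 within the shallower libraries (1 Chd3/4Δβ and 3 Control), and higher regions 530 under cyclic loess with limma-trend, which changes the test too; the cause was not tested. Without a fold threshold 1299 were higher and 1571 lower, and with a 4-fold threshold 328 and 84, by construction. Under TMM the counts were 660 and 822, under DESeq2 813 and 574, with a filter on low values 590 and 394, and with the depth term 766 and 540. Leaving out 1 library gave 774 to 870 higher and 506 to 660 lower. The exonic share of counts, lower by 0.622 percentage points in Chd3/4Δβ, was lower by 0.312 points as a share of library size (difference -0.312), and 0.0264 points higher in exons over 1000 bases from a TSS. Leaving out 1 library gave -0.685 to -0.527 points, with exact permutation p = 0.0667 or 0.1, the smallest those sizes allow.

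Cyclic loess turned the direction of Foxr1 (-0.49, against 3.42), Egr1 (0.23), Gadd45g (0.17), Junb (0.33), Klf13 (0.31) and Bcr (0.05). Of 90 called regions among the 119 named, 70 could be fitted in all 17 settings other than the fold thresholds. The other 20 did not pass the filter on low values. Calls were lost in 9 of the named regions without Chd3/4Δβ replicate 1, in 4 under RLE scaling and in 4 with the replicate block. The replicate numbers share no stated origin, and deviations of same-numbered libraries correlated at 0.0677, -0.0312 and -0.016. With the replicate block 825 regions were higher and 566 lower. With 69 to 198 counts in the median exonic region per library, differences among the lowest regions were the least certain.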
